A study of Mus musculus with 4 samples.

Results

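The genes described here are those of the mouse major histocompatibility complex (MHC, named H2 in mouse) and of the machinery that loads and controls it. They were taken as every protein-coding gene of GENCODE M21 (mm10) whose symbol starts with H2-, plus Tap1, Tap2, Tapbp, B2m, Nlrc5, Ciita and Cd74, which gave 41 of 21938 protein-coding genes. 37 of them lie on chromosome 17, and B2m, Nlrc5, Ciita and Cd74 lie on chromosomes 2, 8, 16 and 18. Every open region overlapping a gene body or the 5 kb on either side of it was used. The assay was ATAC-seq, which uses a transposase to cut and tag accessible DNA, and the cells were primary T-helper 17 (Th17) cells of C57BL/6NJ mice. The only group is 4 biological replicates of these cells. They share 1 donor identifier, no genotype change or age is given, and 72hrs stands in the names of the regions without an explanation. With no second group, and an exact two-sided sign-flip test over 4 replicates that cannot go below 0.125, no test was made, and the values below are descriptions with the spread over replicates.

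MHC class I molecules, made of a heavy chain and the light chain beta-2-microglobulin, show peptides from inside the cell to CD8 T cells, and nearly all nucleated cells carry them. The transporters TAP1 and TAP2 bring peptides into the endoplasmic reticulum, where tapasin helps to load them. MHC class II molecules show peptides from endosomes to CD4 T cells, and in mice they are known mainly from B cells, dendritic cells and macrophages. The coactivators NLRC5 for class I and CIITA for class II act through a shared promoter module with an X box bound by RFX and a Y box bound by NF-Y, while class I promoters also carry sites for NF-kB and interferon regulatory factors.

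Promoter sequences from the RefSeq table (GRCm38.p6) are shown for members that the results turn on, 250 bases before to 50 bases after the RefSeq start and each 5′ to 3′ on the gene's strand. 34 of the 41 members had an entry. H2-Ab1, H2-Q1, H2-T24, Tap2, Nlrc5, Ciita and Cd74 had none. Capitals mark matches on either strand to 5 of the strings searched: the NF-kB string, the interferon-stimulated response element (ISRE, GAAA, any 2 bases, GAAA), the cyclic AMP response element (CRE, TGACGTNA), the RFX X-box core (GCAACNG) and the NF-Y string (CCAATC, or GATTGG on the other strand). The first pair holds the classical class I genes, H2-K1 at chr17:34000284-34000583 (minus strand) and H2-D1 at chr17:35262844-35263143 (plus strand). The light chain gene B2m lies at chr2:122147437-122147736 (plus strand) and the transporter gene Tap1 at chr17:34187306-34187605 (plus strand). The class II genes H2-Aa, at chr17:34287774-34288073 (minus strand), and H2-Eb1, at chr17:34305617-34305916 (plus strand), show the Y box. H2-M10.1, at chr17:36326101-36326400 (minus strand), is shown because it has the same Y box string and no open region.
H2-K1: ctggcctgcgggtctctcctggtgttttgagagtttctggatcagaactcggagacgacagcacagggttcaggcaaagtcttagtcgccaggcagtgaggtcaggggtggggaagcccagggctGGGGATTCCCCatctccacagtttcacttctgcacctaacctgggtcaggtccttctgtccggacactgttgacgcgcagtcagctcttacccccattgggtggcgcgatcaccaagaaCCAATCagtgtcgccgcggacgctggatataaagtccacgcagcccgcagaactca
H2-D1: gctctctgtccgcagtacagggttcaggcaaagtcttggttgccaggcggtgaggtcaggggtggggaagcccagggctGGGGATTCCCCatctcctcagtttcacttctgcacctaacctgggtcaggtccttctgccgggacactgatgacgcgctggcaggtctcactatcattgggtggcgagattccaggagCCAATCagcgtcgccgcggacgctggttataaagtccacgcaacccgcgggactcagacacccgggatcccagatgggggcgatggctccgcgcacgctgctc
B2m: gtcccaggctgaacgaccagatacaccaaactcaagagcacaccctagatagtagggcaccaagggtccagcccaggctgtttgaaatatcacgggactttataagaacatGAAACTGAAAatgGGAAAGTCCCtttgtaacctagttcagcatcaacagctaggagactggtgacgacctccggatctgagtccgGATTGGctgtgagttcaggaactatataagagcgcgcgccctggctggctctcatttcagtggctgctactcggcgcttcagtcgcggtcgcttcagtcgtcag
Tap1: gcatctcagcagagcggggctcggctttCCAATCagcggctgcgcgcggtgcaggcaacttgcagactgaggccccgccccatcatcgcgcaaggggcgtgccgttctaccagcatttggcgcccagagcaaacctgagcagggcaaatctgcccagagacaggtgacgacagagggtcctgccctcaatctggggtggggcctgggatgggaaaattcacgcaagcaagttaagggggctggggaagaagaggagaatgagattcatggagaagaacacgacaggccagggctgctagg
H2-Aa: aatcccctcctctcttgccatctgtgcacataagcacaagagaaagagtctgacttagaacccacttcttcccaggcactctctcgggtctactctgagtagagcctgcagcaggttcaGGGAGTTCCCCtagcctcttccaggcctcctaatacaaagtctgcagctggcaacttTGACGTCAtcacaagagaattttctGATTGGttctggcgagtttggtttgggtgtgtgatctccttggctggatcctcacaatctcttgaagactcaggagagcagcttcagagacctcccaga
H2-Eb1: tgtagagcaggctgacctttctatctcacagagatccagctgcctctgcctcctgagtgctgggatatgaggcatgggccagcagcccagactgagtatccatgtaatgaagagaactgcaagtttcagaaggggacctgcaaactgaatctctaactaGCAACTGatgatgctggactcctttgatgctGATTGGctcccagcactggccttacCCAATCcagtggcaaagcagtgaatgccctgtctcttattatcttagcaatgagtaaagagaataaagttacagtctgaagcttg
H2-M10.1: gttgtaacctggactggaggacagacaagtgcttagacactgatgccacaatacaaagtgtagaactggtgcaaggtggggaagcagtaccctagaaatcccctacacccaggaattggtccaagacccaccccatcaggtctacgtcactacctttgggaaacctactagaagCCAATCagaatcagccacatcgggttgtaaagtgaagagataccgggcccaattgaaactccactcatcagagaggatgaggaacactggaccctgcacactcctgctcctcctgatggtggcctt

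The lists held 83904, 85127, 85293 and 84137 regions in replicates 1 to 4, of which 82, 85, 83 and 82 lay in the windows of the members. That is 0.098% ± 0.001 of a list (SD, n = 4). After merging overlapping regions of the 4 lists, a region found in all 4 was called shared, and 76 of 68696 shared regions lay in these windows. The lists give no read counts, so depth is unknown. As a check of the label, the promoters of all 8 matched T-cell markers (among them Cd3e, Cd4, Lck and Zap70) and all 7 Th17 markers (among them Il17a, Il17f and Il23r) were open in every replicate. Markers of other cells that could carry class II were open in 10 of 20 cases, against 64.1% of all protein-coding genes. The open markers were Pax5, Cd22, Cr2 and Blk of 8 B-cell markers, and Itgax, Zbtb46, Flt3, Batf3, Cd14 and Spi1 of 12 dendritic cell or macrophage markers. Pax5, Cd22 and Blk counted as open through other annotated starts. At the gene's 5′ end Pax5 had a region in 1 replicate, and Cd22 and Blk in 0. Cd79b was open in 2 replicates and Fcgr1 in 1. Cr2 and the 6 open dendritic cell or macrophage markers had a region at the gene's 5′ end in every replicate. In 8 of the 20 markers no replicate had a promoter region, among them Cd79a, Ms4a1, Clec9a, Xcr1, Lyz2, Adgre1 and Csf1r. Of the pair of CD8 genes Cd8b1 was open and Cd8a was not.

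The term open is used for a promoter with a region no more than 1 kb from an annotated transcript start in the separate list of every replicate. By this measure 26 of the 41 members (63.4%) were open, against 64.1% of all protein-coding genes, so the count as a whole was close to the background. 2 members were open in some replicates only, and 13 had no promoter region in any replicate. In single replicates 26, 28, 28 and 27 members had a promoter region. The members divided by role. Open promoters were found at 2 of 2 classical class I genes, 5 of 6 Q genes, 3 of 4 T genes, 1 of 12 M genes, 9 of 10 class II genes (Cd74 included), 4 of 4 genes of the light chain and peptide loading, 1 of 2 regulators, and H2-Ke6, which encodes a dehydrogenase and not an MHC chain. At least 1 shared region lay in the window of 30 members, against 74.8% of all genes. The median member had 1 shared region, and the median gene had 2.

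To compare strengths within a replicate, each region was given the percentile of its signal, the deposited enrichment over background, in that replicate's list. The percentile of a promoter is that of its strongest region. Its median over the 26 open members was 66.05, with members from 27.15 to 98.21. The median over all open genes was 79.22 (quartiles 61.55 and 90.28), and 16 open members lay below it and 10 above. Ranked instead by the deposited -log10 q, the median was 82.5 for the open members and 85.46 for all open genes. In bulk chromatin, a promoter open in fewer cells and one less open in each cell cannot be told apart.

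**Figure D1:**
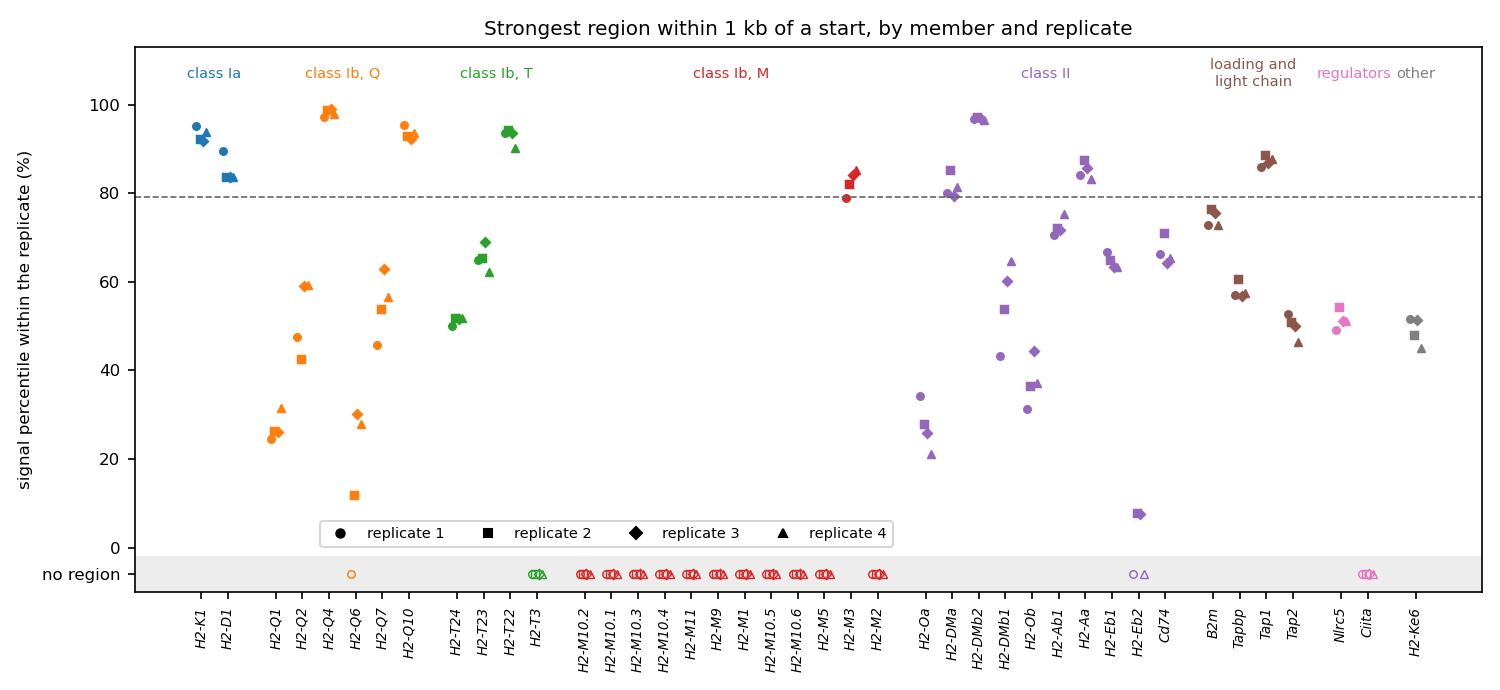
Signal percentile of the strongest region within 1 kb of an annotated start (vertical axis, percent of the replicate's regions) for each of the 41 members, grouped by role. Each marker is 1 of the 4 replicates, open markers in the grey band mean no region, and the dashed line is the median of all open genes (79.22). H2-Q4 and H2-DMb2 stand at the top in all 4 replicates, and 11 of 12 M genes lie in the grey band.

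Among the classical class I heavy chain genes, which present peptides to CD8 T cells, both promoters were strongly open. H2-K1 stood at the 95.2, 92.22, 91.75 and 93.88 percentile in replicates 1 to 4, with a signal of 14.4 ± 0.838 (SD, n = 4). H2-D1 stood at 89.5, 83.68, 83.75 and 83.62, with a signal of 12.2 ± 0.961. All 4 replicates of H2-K1 were above all 4 of H2-D1, and replicate 1 of H2-D1 was apart from its other 3. The region at H2-D1 covered all 300 bases shown above in every replicate, and its summit lay at -79 from the RefSeq start in all 4. At H2-K1 the summits lay at -41, -32, -6 and -41 from the start of the entry shown. Each gene also had weaker shared regions outside its promoter: 1 downstream of H2-K1 at the 63.8 ± 1.64 percentile, and at H2-D1 1 upstream at 13.4 ± 2.76 and 1 downstream at 32.2 ± 4.29.

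The Q genes, nonclassical class I genes next to H2-D1, covered a wide range. Means of the open Q genes ran from 27.15 to 98.21, and those of the open class II genes from 27.29 to 96.72. H2-Q4 had the highest promoter signal of all members, at 97.12, 98.74, 99.07 and 97.91. Ranked by -log10 q it stood at 96.4, below H2-K1 (97.7), H2-D1 (97.6), H2-DMa (96.8) and Tap1 (96.6). H2-Q10, which encodes a secreted class I molecule of the liver, followed at 93.6 ± 1.31. The summits of this region lay 907 bp upstream of the H2-Q10 start, near the edge of the promoter window, in all 4 replicates. H2-Q7, which encodes the Qa-2 antigen, stood at 45.78, 53.77, 62.86 and 56.62. H2-Q2, the Q gene with the most shared regions (2), stood at 47.48, 42.65, 58.95 and 59.28. At both H2-Q7 and H2-Q2 the replicates with the tag KS134 in their region names (1 and 2) were below those tagged KS136 (3 and 4). H2-Q1 was open at 27.2 ± 3.08. H2-Q6 had no region in replicate 1 and stood at 11.9, 30.14 and 27.92 in the others, so it had no shared region.

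The T genes were open apart from H2-T3. H2-T22, which encodes a ligand of some gamma-delta T-cell receptors, stood at 93.68, 94.27, 93.69 and 90.25. H2-T23 encodes Qa-1, which presents leader peptides of other class I chains to NK cell receptors, and its promoter stood at 64.89, 65.43, 68.94 and 62.26. H2-T24 had the most shared regions of the group (4) and stood at 51.3 ± 0.802. H2-T3, which encodes the thymus leukaemia antigen, had no promoter region in any replicate. Its single shared region lay 3429 bp upstream of the nearest H2-T3 start, at 80.34, 77.49, 79.49 and 81.02, above the promoters of H2-T23 and H2-T24 by signal. By -log10 q the order turned, with 73.3 for this region, 74.2 for H2-T23 and 82.9 for H2-T24.

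The M genes were the closed part of the family. H2-M3, which presents N-formylated peptides such as those of bacteria, was the exception, at 78.92, 81.99, 84.14 and 85.25. Its summits lay downstream of the start, 727 to 728 bp from the RefSeq start. The other 11 had no promoter region in any replicate. They include the M10 genes, known from sensory neurons of the vomeronasal organ. H2-M10.2 and H2-M10.6 each had 1 shared region, upstream of the gene by 4351 and 3657 bp, at 33.8 ± 9.36 and 68.4 ± 5.04. The remaining 9 M genes had no shared region in their windows, and a region reached the window of H2-M5 in replicate 4 alone. Over all 24 class I heavy chain genes, 11 were open, 1 was open in some replicates and 12 had no region.

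The M genes lie among olfactory receptor genes, and the blocks of the complex differed in the density of shared regions. The block from H2-M10.2 to H2-M2 held 32 shared regions in 1209.3 kb, or 2.65 per 100 kb. This compares with 13.1 per 100 kb in the class II block (34 regions in 259.1 kb), 6.31 in the Q block (14 in 221.8 kb) and 8.74 in the T block (17 in 194.6 kb). Chromosome 17 as a whole had 3.07 per 100 kb and all chromosomes 2.52. Within the M block 2 of 19 olfactory receptor genes and 9 of 14 other genes had open promoters, beside 1 of 12 members.

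All class II genes but H2-Eb2 had open promoters. H2-Aa, the alpha chain of I-A, stood at 84.22, 87.56, 85.63 and 83.19. Its partner H2-Ab1 stood at 70.65, 72.19, 71.77 and 75.33, below H2-Aa by signal in every replicate. By -log10 q their means were 82.0 for H2-Ab1 and 81.7 for H2-Aa. H2-Eb1, the beta chain of I-E, stood at 66.78, 64.88, 63.28 and 63.31. H2-Eb2 had a promoter region in replicates 2 and 3 only, at 7.77 and 7.52, and no shared region. Cd74, the invariant chain that guides class II molecules to endosomes, stood at 66.38, 70.93, 64.24 and 65.32. Beside these values, 10 of the 20 markers of B cells, dendritic cells or macrophages were open (strongest promoter regions from 21.05 to 85.99). This share was below the 64.1% of all protein-coding genes with an open promoter. Cr2, Itgax, Zbtb46, Flt3, Batf3, Cd14 and Spi1 were open at the gene's 5′ end in every replicate. Cd79a, Ms4a1, Clec9a, Xcr1, Lyz2, Adgre1 and Csf1r were among the 8 with no promoter region in any replicate. The part of other cells in the class II values was not tested.

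Among the genes that edit class II peptides, the chains of DM ranked above those of DO by the signal of the strongest promoter region in every replicate. Ranked by -log10 q, H2-DMb1 (44.4) stood below H2-Ob (51.8), while H2-DMa and H2-DMb2 (96.8 and 91.7) stayed above both DO genes. H2-DMb2, a beta chain of the peptide exchange catalyst DM, was the second highest of all members by signal, at 96.64, 97.09, 96.73 and 96.43. This region lies at 1 of its 3 annotated starts, and the others, 1929 and 1964 bp further on, had a region in 1 replicate only. The RefSeq promoter entry of H2-DMb2 spans those later starts and does not reach this region. H2-DMa, the alpha chain of DM, stood at 80.16, 85.2, 79.27 and 81.36. This region lies at starts 16087 and 16113 bp from the gene's 5′ end. The shared region at the 5′ end of H2-DMa, which also touches the promoter of another gene, stood at 40.55, 36.06, 34.37 and 33.97. These values overlapped those of both DO genes. H2-DMb1, the other beta chain, ranged more widely, at 43.35, 53.77, 60.27 and 64.6. The chains of DO, which inhibits DM, were lower. H2-Oa stood at 34.29, 27.8, 25.92 and 21.16, and H2-Ob at 31.4, 36.59, 44.3 and 37.21. By the strongest promoter region, no replicate of either DO gene reached the lowest value of H2-DMa or H2-DMb2. The highest value of H2-Ob (44.3) passed the lowest of H2-DMb1 (43.35). H2-Oa and H2-Ob, with H2-Q1, were no longer open when only the strongest 50000 regions of each list were kept, and H2-Q1 also not with a -log10 q of at least 10.

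**Figure D2:**
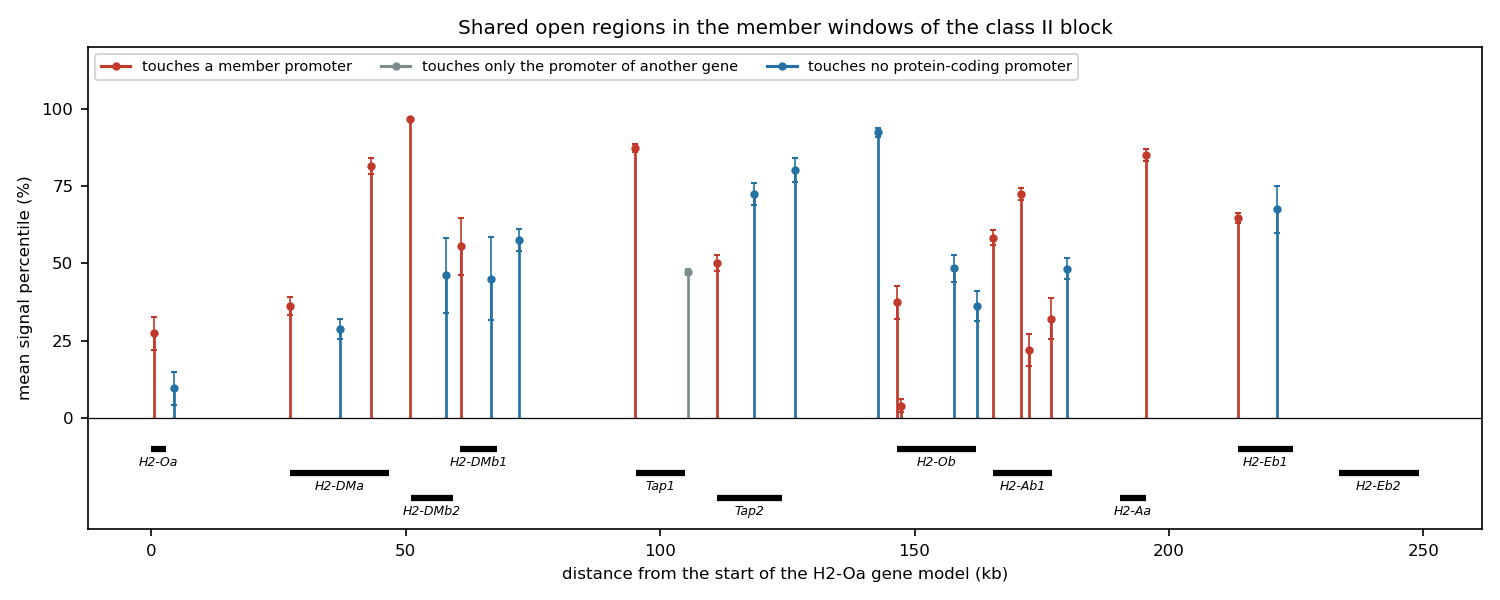
Mean signal percentile (vertical axis, percent, with SD over 4 replicates) of each shared region in the member windows of the class II block, by distance of its summit from the start of the H2-Oa gene model (horizontal axis, kb). Red regions touch a member's promoter, grey ones only the promoter of another gene and blue ones no protein-coding promoter, and black bars are member gene bodies. The tall blue line beside H2-Ob is the region 3760 bp upstream of it, at 92.3.

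Strong regions of the class II block were not all at promoters. H2-Ob and H2-Ab1 had the most shared regions of the class II genes, 6 each. The strongest region near H2-Ob lay 3760 bp upstream of its start, at 94.29, 91.68, 91.67 and 91.69, while the promoter itself stood at 37.4 ± 5.30. Downstream of Tap2 a region at the 80.2 ± 3.82 percentile exceeded the Tap2 promoter by signal. By -log10 q the order turned, with 64.5 for that region and 84.1 for the promoter. In H2-Eb1 an intronic region, 4070 bp from the start, stood at 67.5 ± 7.52, which overlapped the values of its promoter.

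The genes of peptide loading and the light chain were all open. B2m, the light chain gene, stood at 72.77, 76.33, 75.55 and 72.81, with a single shared region. Tap1 stood at 85.81, 88.67, 86.75 and 87.69. That region also lies at the start of Psmb9, an immunoproteasome subunit gene that runs in the opposite direction, with the summit 74 bp from a Psmb9 start. Tap2 stood at 52.66, 51.01, 50.04 and 46.4, below Tap1 in every replicate. Tapbp, the tapasin gene, stood at 57.14, 60.72, 56.73 and 57.54, at a region that Zbtb22 shares with a summit 50 bp from its start. Tapbp had 5 shared regions, the most of this group, but only 2 of them did not touch the promoter of another gene. At Tap2 this held for 3 of 4.

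The regulators differed from each other. Nlrc5, the class I coactivator, had 13 shared regions in its window, the most of any member, and an open promoter at 49.07, 54.32, 51.14 and 51.14. Its strongest region was intronic, 13243 bp from the nearest Nlrc5 start, at 94.83, 95.21, 94.42 and 95.16, and so lay far above the promoter in every replicate. Ciita, the class II coactivator, had no region within 1 kb of the start of any of its 8 annotated transcripts (chr16:10480059-10489783) in any replicate. Its 3 shared regions were intronic and 31578, 33273 and 35299 bp from the nearest Ciita start. The first of these stood at 12.75, 39.78, 43.25 and 35.59, the other two at 22.3 ± 4.58 and 13.2 ± 4.64. The starts of Dexi, the neighbouring gene, were nearer to them, at 10448, 8753 and 6727 bp. The class II promoters above were thus open in the same 4 lists in which the starts of Ciita had no region.

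**Figure D3:**
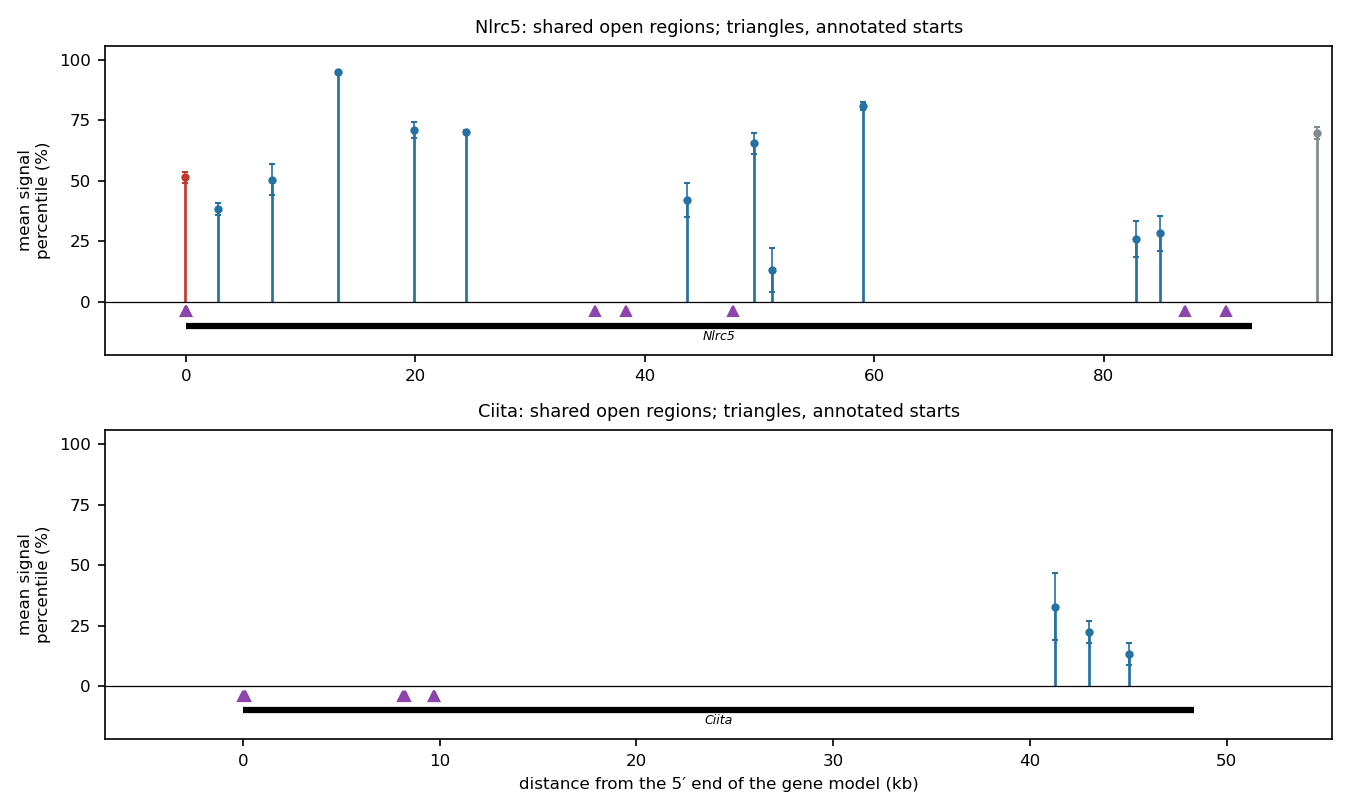
Mean signal percentile (vertical axis, percent, with SD over 4 replicates) of the shared regions in the windows of Nlrc5 (top) and Ciita (bottom), by distance from the 5′ end of the gene model (horizontal axis, kb). Purple triangles are annotated transcript starts, the red line touches a member promoter, the grey line the promoter of another gene and blue lines none, and the black bar is the gene body. Nlrc5 has 13 shared regions and Ciita 3, all 3 in the distal part of the gene.

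In order of promoter percentile the open members ran from H2-Q4, H2-DMb2, H2-Q10, H2-K1 and H2-T22 at the top to H2-Ob, H2-Oa and H2-Q1 at the bottom. The replicate values of 19 of the 25 neighbouring pairs overlapped, so most neighbours in the order did not differ beyond their spread. The gaps lay after H2-Q4, H2-DMb2, H2-T22, H2-DMa, H2-Eb1 and H2-Ke6. Of the 26 open members, 4 had both KS134 replicates above both KS136 replicates, 5 the reverse, and 17 were not separated by the tag. With 2 replicates per tag, full separation also arises when values fall in random order. An effect of the tag was not tested.

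Of the 76 shared regions, 32 touched a member promoter, 6 only the promoter of another gene and 38 no protein-coding promoter. Their median percentiles were 60.4 ± 1.47, 51.3 ± 1.57 and 45.2 ± 1.88 (SD over 4 replicates). 8 regions fell in the windows of 2 or more members. 7 were in the top 10 percent of the lists by mean percentile. Their median width was 946.5 bp, and that of all shared regions 888 bp.

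The strongest regions away from promoters at Nlrc5, H2-Ob and H2-T3 are shown as 151 bases centred on the summit of replicate 1, on the plus strand of GRCm38. They lie at chr8:94447568-94447718, chr17:34235069-34235219 and chr17:36193643-36193793. Capitals here mark matches to the strings above or to the others searched: AP-1 (TGANTCA), ETS (CCGGAAG), RUNX (TGTGGTT) and the string for the insulator protein CTCF. These others were also searched in the promoters but are not in capitals there. The match is the X-box core at Nlrc5 and the CTCF string at H2-Ob and H2-T3.
Nlrc5 intron: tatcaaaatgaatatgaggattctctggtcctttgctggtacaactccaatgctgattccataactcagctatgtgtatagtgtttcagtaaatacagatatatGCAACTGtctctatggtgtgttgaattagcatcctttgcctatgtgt
H2-Ob upstream: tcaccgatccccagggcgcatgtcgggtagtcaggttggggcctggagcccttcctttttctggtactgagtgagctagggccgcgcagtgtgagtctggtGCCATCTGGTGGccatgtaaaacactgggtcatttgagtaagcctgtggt
H2-T3 upstream: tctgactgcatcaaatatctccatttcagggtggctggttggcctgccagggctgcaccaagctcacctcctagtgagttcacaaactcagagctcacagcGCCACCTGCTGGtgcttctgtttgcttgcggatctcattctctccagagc
These were the only shared regions in the member windows with the CTCF string within 50 bp of the summit in all 4 replicates (2 regions). Neither touched a promoter.

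Strings near summits were counted within 50 bp on either strand and set beside the share over all regions of the lists. The NF-Y string lay at 15.3% ± 1.61 of the summits in member windows (11 of 82, 14 of 85, 14 of 83 and 12 of 82), against 4.0% of all summits. The NF-kB string lay at 9.93% ± 1.04 against 3.51%, and the CRE string at 3.31% ± 0.583 against 0.777%. The X-box core was at 6.03% ± 1.44 against 3.8%, and the ISRE at 2.71% ± 0.603 against 1.71%. AP-1 was lower in member windows, at 13.6% ± 2.24 against 21.1%, and RUNX stood at 3.02% ± 1.59 against 5.04%. The ETS string was at no member summit, against 1.81% of all. CTCF stood at 3.62% ± 1.01 against 4.27%. For NF-Y, NF-kB, CRE, X-box core and ISRE every replicate was above the share over all regions, and for AP-1, RUNX and ETS every replicate was below it. Within 25 bp the means turned for the ISRE (0.0% against 0.553%), the X-box core (0.9% against 1.77%) and RUNX (2.41% against 2.27%). Within 100 bp the X-box core was at 7.84% against 7.64%, with 2 replicates below. For NF-Y, AP-1 and ETS the direction held in every replicate at all 3 distances. Summits within 1 kb of a protein-coding start made up 45.8% ± 1.26 of the member summits and 19.6% of all summits, so the shares were also taken separately near and away from starts. Near starts (39, 38, 38 and 37 member summits) the NF-Y string was at 29.0% ± 3.08 against 9.03% of all such summits, the NF-kB string at 11.8% ± 1.53 against 3.93%, the CRE at 7.26% ± 1.42 against 1.67% and the ISRE at 4.61% ± 1.32 against 0.955%. Away from starts (43, 47, 45 and 45 member summits) NF-Y was at 3.87% ± 1.03 against 2.77%, NF-kB at 8.34% ± 1.16 against 3.41%, and AP-1 at 20.6% ± 4.12 against 24.6%, with replicate 3 above the share over all such summits. The CTCF string was at 6.67% ± 1.83 of the member summits away from starts, against 4.70%, and at none near starts.

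**Figure D4:**
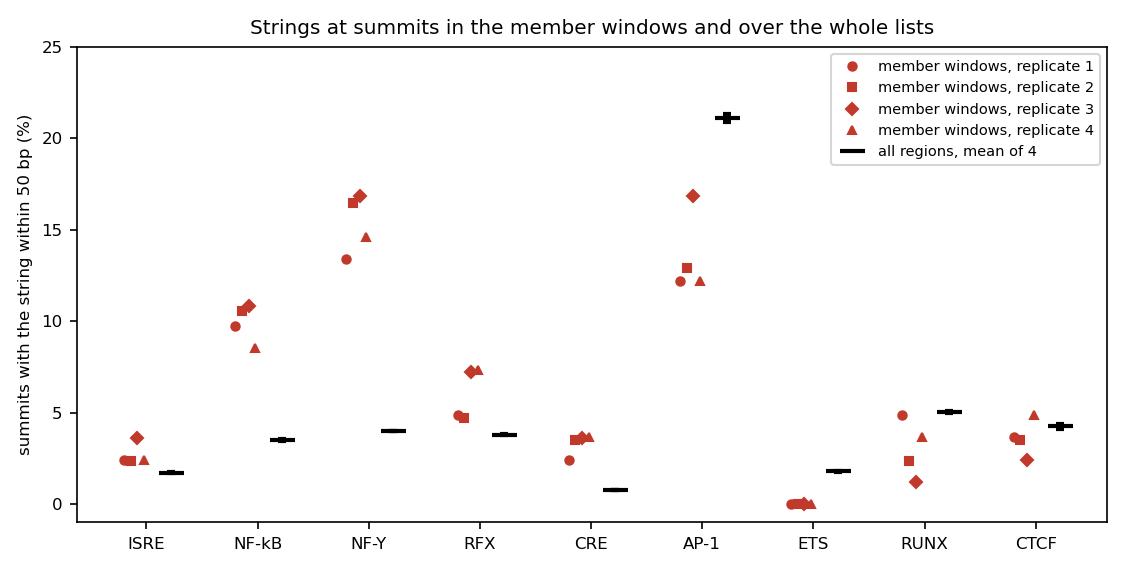
Share of summits with each string within 50 bp (vertical axis, percent) in the member windows of each replicate (red markers) and over all regions (black bars, mean of 4 replicates with SD). NF-Y stands at 13.4% to 16.9% in the member windows against 4.0%, and AP-1 at 12.2% to 16.9% against 21.1%.

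The NF-Y string was within 50 bp of the summit in all 4 replicates at 11 shared regions. 10 of them were promoters: those of H2-K1, H2-D1, H2-T22, H2-T23, H2-DMa, H2-DMb1, H2-Ob, H2-Ab1, H2-Eb1 and B2m. The NF-kB string was at the summits of H2-Aa, Cd74 and B2m and of 2 regions outside promoters in all 4. The CRE string was at those of H2-Q4 and of the H2-DMa region at the gene's 5′ end (chr17:34118831-34122868). The H2-DMa region with the NF-Y string was another (chr17:34134283-34136042), with the CRE in 0 replicates. The ISRE was at the summit of H2-M3 alone.

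In the RefSeq promoters, which extend over 300 bases, the NF-Y string was present in 27 of the 34 member genes with an entry, against 18% of the 20150 protein-coding promoters in the table. It was present in 8 of 8 class II genes, 2 of 2 classical class I genes and 9 of 12 M genes, none of which was open. The open H2-M3 did not have it. The H2-DMb2 entry (chr17:34144999-34145298) lies outside the strong H2-DMb2 region, which had no NF-Y string within 50 bp of its summit in any replicate. The H2-DMa match lies in an entry (chr17:34125268-34125567) outside the strongest H2-DMa promoter region (chr17:34134283-34136042). That region had the string near its own summit. The strand of the NF-Y string followed the class of the gene. In 15 of 16 class I heavy chain genes with the string it was CCAATC alone on the gene's strand, and in 1 it was present in both directions. In 7 of 8 class II genes it was GATTGG alone, and in 1, H2-Eb1, both. Over all promoters in the table the directions were near equal, at 9.33% for CCAATC and 9.76% for GATTGG. The string therefore stood in promoters that were open and in promoters with no region, as the sequences of H2-K1 and H2-M10.1 above show.

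Other strings followed single genes. The NF-kB string was in 10 member genes against 9.43% of all promoters, among them both classical class I genes, where it reads GGGGATTCCC and overlaps a further match. In B2m the ISRE ran from -139 to -130, the NF-kB string from -126 to -117 and the Y box from -54 to -49. The summits of B2m lay at -90, -86, -90 and -90, between these strings. In H2-Aa the CRE ran from -74 to -67 and the Y box from -49 to -44, and in H2-Eb1 the X-box core from -91 to -85 and a Y box from -60 to -55. The X-box core was in 4 member genes (12.4% of all promoters), the ISRE in 3 (3.42%) and the CRE in 2 (3.6%). AP-1 was in 4 (7.0%), ETS in 2 (11.9%), RUNX in 2 (4.66%) and CTCF in 0 (2.0%). Strings overlap in part, and a match is a description of the letters only.

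MHC genes are near copies of each other, and the deposited notes name both alignments and a signal of unique reads without saying which reads the regions rest on. The share of 31-base words within 1 kb of the starts that occur more than once in the genome is given for each role. Its median was 30.3% for classical class I, 28.3% for Q, 31% for T, 7.53% for M, 4.78% for class II, 4.22% for loading genes and 3.45% for regulators, against 3.04% (quartiles 0.765% and 8.65%) in 438 sampled protein-coding genes. H2-Q7 had 75.6%, H2-Q6 70.3%, H2-T23 55.8% and H2-T22 43.4%. Open members ranged from 0.0% to 75.6% (median 8.40%) and members with no region from 0.203% to 22.3% (median 7.46%). How reads from copies were placed was not tested. The values of the Q and T genes and of H2-K1, H2-D1, H2-DMb1 and H2-DMb2 are uncertain to that extent.

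**Figure D5:**
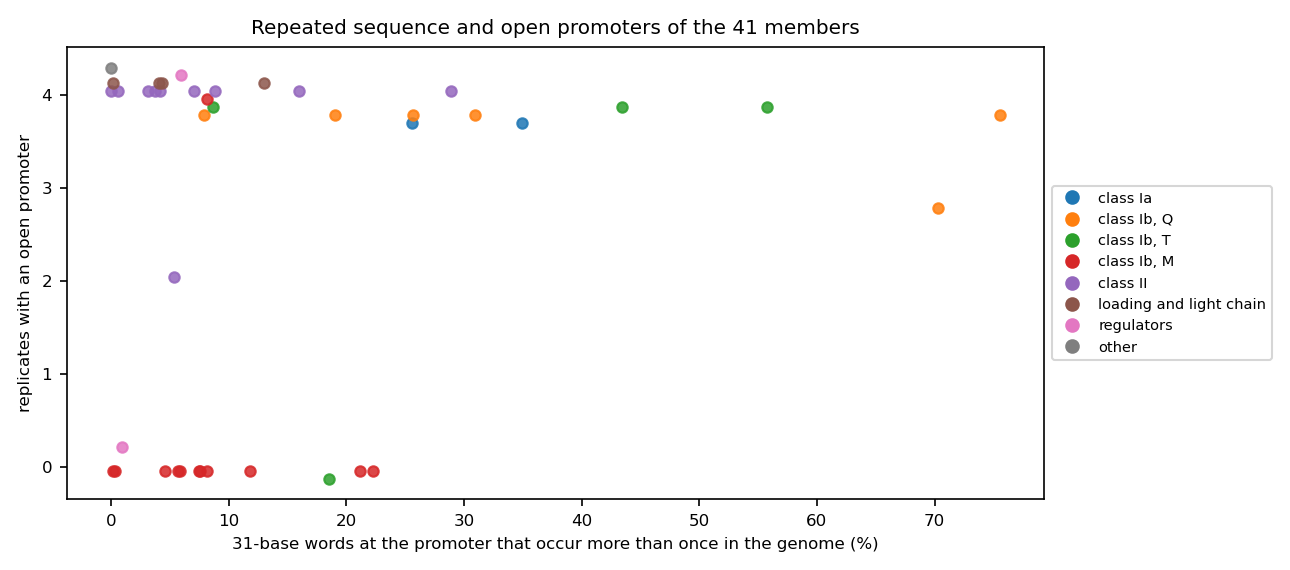
Share of 31-base words within 1 kb of a member's starts that occur more than once in the genome (horizontal axis, percent) and the number of replicates with an open promoter (vertical axis), 1 point per member, coloured by role and shifted slightly up or down by role. The points at 0 replicates reach 22.3%, and those at 4 replicates reach 75.6%.

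The other genes of the pathway were taken from a list outside the members. Of a list of 36 genes matched in the annotation (Ifi30 was not matched), 33 (91.7%) had open promoters, against 64.1% of all genes and 63.4% of the members, with a median percentile of 84.95. The list covers the immunoproteasome (Psmb8, Psmb9, Psmb10), chaperones (Calr, Canx, Pdia3), the RFX subunits (Rfx5, Rfxap, Rfxank), NF-Y subunits (Nfya, Nfyb, Nfyc), interferon signalling (Irf1, Jak1, Jak2, Ifngr1, Ifngr2) and class II proteases (Ctss, Ctsl, Lgmn). The 3 without a region at any start were Fcgrt, the neonatal Fc receptor gene, Azgp1, a class I-like gene, and March1, a ubiquitin ligase that removes class II from the surface. The most shared regions were at Jak1 (16), Jak2 (9), and Irf2 and Nfyc (8 each), and Azgp1 and March1 had 0. The genes of the RFX and NF-Y subunits thus had open promoters in the same lists in which Ciita had none.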

How the data were processed

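Region lists from 4 ATAC-seq replicates were used as the authors deposited them, on mm10 per the labels. Which aligner and peak caller were used, and in what version, is not given in the sources used here. Per the deposited notes the lists are in narrowPeak form and were derived from the alignments. The deposited signal value was read as a ratio, the fold enrichment over background. The deposited -log10 p and -log10 q are per region, with a minimum -log10 q of 1.0 ± 0.0028 (SD, n = 4). The deposited display score was not used. No counts are given, so depth and intervals are unknown.

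Regions of the autosomes and sex chromosomes were compared with GENCODE M21 (GRCm38.p6). Lists were merged at an overlap of 1 bp, and a promoter was called open from each replicate's own regions. Strings were searched in the genome sequence and in the RefSeq promoter table. Python 3.11.15, numpy 2.4.6 and pandas 2.3.3 were used. The overlap and word-counting code was tested on simulated data. The members and all lists were chosen with earlier results of these data known. The labels give no group to compare, so no test was made. Per-replicate values are given for a list of genes named by role, for members with the most and fewest shared regions in a role and for members open in some replicates. Other members were singled out after their values were seen. A few listed genes are not reported here by name. Alternatives were the region threshold, promoter and gene windows, the starts used, the ranking value, the string distance, the word length and leaving out each replicate. Protein-coding transcript starts alone and the string shares near and away from starts were added after seeing the data.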

Additional observations from a re-analysis of the deposited data

Results flagged for a closer look

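Within each group of 4 replicates, 36 quantities were checked for a replicate far from the other 3 (Dixon's ratio at the 95% level), and 7 had one. Chance gives about 1 in 20. The promoter of H2-D1 had a percentile of 89.5 in replicate 1, with the others at 83.62 to 83.75. H2-T24 had 50.09 in replicate 1, with the others at 51.53 to 51.77. H2-T22 had 90.25 in replicate 4, with the others at 93.68 to 94.27. The share of the list in member windows was 0.0999% in replicate 2 and 0.0973% to 0.0977% in the others. Of the member summits, 3.614% had the ISRE in replicate 3 (2.353% to 2.439% in the others), 2.439% the CRE in replicate 1 (3.529% to 3.659%) and 16.867% AP-1 in replicate 3 (12.195% to 12.941%). Each share rests on 2 to 14 summits. The cause was not tested.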

How the results depend on the processing

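Over 353 values recomputed under alternatives, the call of open or closed changed for 4 members. H2-Q1 was open in 1 replicate with a -log10 q of at least 10. With the strongest 50000 regions H2-Q1 and H2-Oa were open in 0 replicates and H2-Ob in 1, 46 shared regions lay in the member windows, and the share of open genes overall was 55.5%. H2-Q6 became open without replicate 1, or when 3 replicates sufficed. Windows of 500 bp or 2 kb, the gene's 5′ end or protein-coding transcripts alone, and merged regions changed no member's call. In the other lists Ctss and Hfe closed with the strongest 50000 regions and Nfyc at its 5′ end alone. With 10 kb on either side the median member had 2 shared regions. Ranked by -log10 q the median open member stood at the 82.452 percentile, 17 members rose and 9 fell, and 25 of 26 moved by more than 1 SD. The share of summits with the ISRE was 0.0% within 25 bp and 9.035% within 100 bp, and the median share of repeated words was 12.69% with words of 24 bases against 7.933% with 31. The cause was not tested. No paired analysis was possible because there is 1 group. Depth is unknown and limits what an absent region can show.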

Other observations

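11 further H2- genes are not protein-coding in GENCODE M21 and so were not among the members. 5 of them had an open promoter in all 4 replicates. H2-T10, a close relative of H2-T22, stood at 96.71, 97.81, 98.55 and 96.91, above H2-T22 by signal in every replicate. H2-T-ps stood at 87.2 ± 3.12, H2-Bl at 75.5 ± 1.79, H2-K2 at 74.1 ± 2.43 and H2-Q3 at 32.9 ± 5.07 (SD, n = 4). H2-Pb had a region in replicate 1 only, at 4.79. H2-Ea-ps, H2-Q5, H2-Pa, and both H2-M genes of this group, H2-M6-ps and H2-M10.5-ps1, had none. H2-Ea-ps is the gene of the I-E alpha chain, which C57BL/6 mice do not make, and H2-Eb1, its beta chain partner, was open in all 4 replicates.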
